A study of Mus musculus with 6 samples.

Results

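The nuclear arm of the Notch pathway was followed through 9 genes in leukaemic progenitor cells of the mouse: Rbpj, the Mastermind genes Maml1, Maml2 and Maml3, the corepressor genes Ncor1 and Spen, and Fbxw7, Numb and Itch, whose products limit the supply of active Notch. Members were taken as every probe set whose only gene symbol in the platform annotation is one of these names. This gave 16 of the 45101 probe sets of the array, for 7 of the 9 genes. No probe set in the annotation used carried the symbol Maml3 or Ncor1, so these genes were not analysed here. No probe set with several symbols named a member.

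When a Notch receptor is activated, its intracellular domain is released, enters the nucleus and binds Rbpj, which already sits on DNA. Without Notch, Rbpj holds corepressors such as the product of Spen on its targets. With Notch, a Mastermind protein joins and recruits histone acetyltransferases, and the target genes are transcribed. The active domain is short-lived because the ubiquitin ligase receptor Fbxw7 marks it for destruction in the nucleus, while Numb and the ubiquitin ligase Itch lower the amount of receptor at the membrane. In myeloid cells the pathway is known for restraining granulocyte and monocyte production.

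RNA of 6 sorted bone marrow samples was measured on Affymetrix arrays, 3 samples per genotype. The N1-IC group had the genotype MLL-AF9 EF1α wt/lsl-N1-IC ROSA wt/CreERT2, in which the Notch1 intracellular domain sits in 1 EF1α allele behind a stop cassette that Cre removes. The WT group had the genotype MLL-AF9 EF1α wt/wt ROSA wt/CreERT2, so it also carried the tamoxifen-dependent recombinase and the leukaemia fusion MLL-AF9, and it also received tamoxifen. Lethally irradiated wild-type recipients aged 12 weeks were given 50000 infected cKit+ cells, marked with yellow fluorescent protein (YFP), and 250000 wild-type support marrow cells. Tamoxifen (0.2 mg per g of body weight) was given 2 times, starting 4 weeks after transplantation, and the mice were analysed 6 days after the last dose. The sorted cells, called LGMP in the labels, were lineage-negative, cKit+, Sca1-, YFP+, CD34+ and FcgRII/III+. The labels give male for all WT and female for all N1-IC samples, so genotype and sex cannot be told apart in any value below. They do not say how many recipients stand behind a sample or what share of the sorted cells had recombined. A p-value below therefore reflects how far these 6 samples scatter, which may be technical. In sorted bulk RNA, fewer cells of a type and less RNA per cell cannot be told apart.

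Values are log2 of the deposited intensity, 1 per probe set and array. The 6 arrays had medians of 5.63 to 5.67 and lower quartiles of 3.86 to 3.92 on this scale. The genes of the positive gate were bright on every array (Kit 10.23 to 10.76, Cd34 10.05 to 11.69, Fcgr3 12.60 to 13.12, Fcgr2b 12.04 to 12.49). Of 6 genes of cells that the gate removes, 3 were measured, and of these Itgam lay above the median of every array, at 6.93 to 7.34. WT replicate 2 stood apart in the mean of 8 erythroid genes, at 9.80 against 6.05 to 7.05 on the other arrays. It did not stand apart in all of them. Hba-a1 was at 4.07 there, below N1-IC replicates 2 and 3 (4.15 and 4.45), and Tfrc at 12.36 was close to WT replicate 3 (12.21). WT replicate 2 also stood apart in Xist, at 10.70 against 5.64 and 5.42 in the other WT samples and 12.73 to 12.82 in N1-IC. The Y-linked gene Eif2s3y was present there too, at 10.34 against 11.31 and 11.26 in WT and 2.94 to 3.46 in N1-IC, so this sample goes against a purely male label. WT replicate 1 stood apart in 10 late granulocyte genes, with a mean of 7.71 against 10.12 to 10.95 elsewhere. The mean of 8 mast cell, basophil and eosinophil genes was 9.12 to 9.68 in WT replicate 2 and N1-IC replicates 2 and 3, against 7.53 to 8.0 in the other samples. Not all 8 went this way. Cpa3 and Gata2 were highest in WT replicate 1 (8.98 and 12.53). Hdc was higher in N1-IC replicate 1 (10.14) than in N1-IC replicates 2 and 3 (9.17 and 8.77). Whether these departures have a part in the values below was not tested, and the values with single arrays left out are given after the members.

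The question put to both genotypes was whether the N1-IC genotype, after tamoxifen, was accompanied by a change in the transcripts of the nuclear partners of Notch1. In limma, with Benjamini-Hochberg adjustment over 45037 probe sets, 0 of the 16 member probe sets passed an adjusted p under 0.05, against 0.00888% of all probe sets (4 probe sets). These 4 include a probe set of the Y-linked gene Eif2s3y (limma adjusted p = 0.00198), a gene that differs by sex. At an unadjusted p under 0.05 there were also 0 of 16, against 7.7% of all probe sets. The mean was higher in N1-IC for 5 of the 16 and lower for 11, and the median log2 fold change was -0.12 against 0.0025 over all probe sets. This median was -0.066 without WT replicate 3, -0.065 with 1 probe set per gene and -0.076 with log2(value + 16). The log2 fold changes ran from -0.51 for a probe set of Itch to 0.16 for a probe set of Numb. Groups did not overlap for 2 of the 16 probe sets, 1 each of Spen and Fbxw7, both lower in N1-IC, against 14.4% of all probe sets in either direction (7.02% lower and 7.4% higher). After renewed quantile normalization or median centring it was 1 of 16, against 14% and 14.6% of all probe sets. The 16 probe sets are not 16 independent measurements, since most genes have several and some of these share a source sequence.

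**Figure D1:**
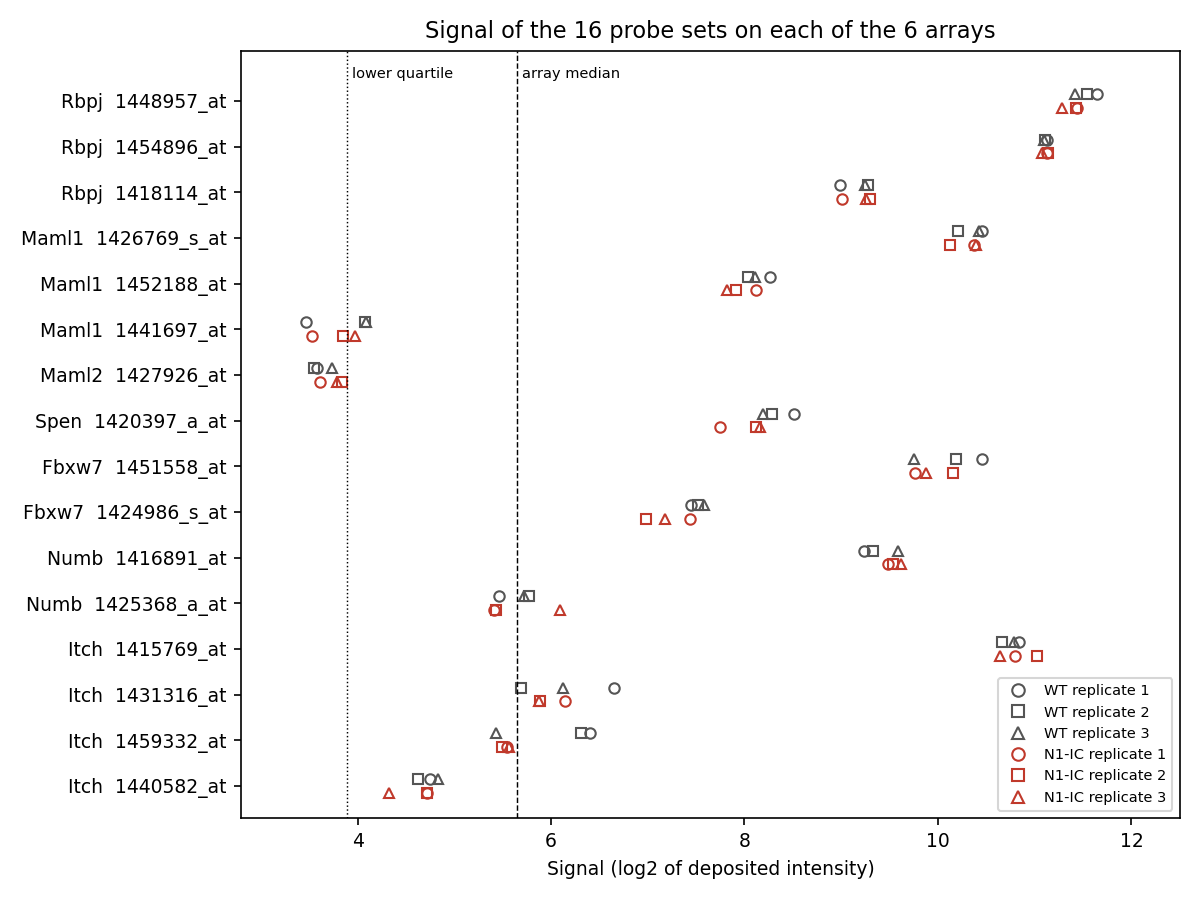
Signal (log2 of deposited intensity, x axis) of each of the 16 probe sets (y axis) on the 3 WT arrays (grey) and the 3 N1-IC arrays (red), with the mean array median (dashed) and lower quartile (dotted). The groups separate for Spen and, by the smallest margin, for Fbxw7 1424986_s_at, and they overlap for the other 14 probe sets.

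Rbpj, on chromosome 5, encodes the DNA-binding factor through which all canonical Notch transcription runs. It has 3 probe sets here, all well above the array medians. Probe set 1454896_at was at 11.13, 11.11 and 11.10 on the WT arrays and at 11.13, 11.14 and 11.07 on the N1-IC arrays. These 6 values span 0.0671 log2 units, and the groups lie on top of each other. The log2 fold change was 0.0046 ± 0.084 (standard error, limma), with a 95% interval that runs from a fold of 0.871 to one of 1.16. Probe set 1448957_at was at 11.65, 11.54 and 11.42 in WT and at 11.44, 11.43 and 11.28 in N1-IC. Here WT replicates 1 and 2 are above every N1-IC array and WT replicate 3 is inside their range. Its log2 fold change was -0.15 ± 0.11, with an interval of -0.41 to 0.11 and an adjusted p of 0.707. Probe set 1418114_at was at 8.99, 9.28 and 9.25 in WT and at 9.01, 9.30 and 9.26 in N1-IC. Replicate 1 of each genotype is the low array in this probe set, and the other 4 are close together, so the spread within a genotype (SD of 0.161 and 0.157) exceeds the difference of 0.019 ± 0.13. None of the 3 intervals reaches a change of 1.5-fold either way. The mouse genome also carries 3 Rbpj pseudogenes named in RefSeq, and whether their transcripts reach these probe sets was not analysed here.

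The nearest patterns to that of 1448957_at, the brightest of the 3, were sought among 10824 genes of at least median brightness, by the root mean square difference of centred log2 values over the 6 arrays. They were those of Septin9 (0.0163), Gcdh (0.029) and Cic (0.0345). Their log2 fold changes were -0.15, -0.12 and -0.14. This is a description of 6 arrays.

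The letters that Rbpj reads in DNA are known, and its targets include genes of the pathway itself. Promoter windows of 250 bases before a transcript start, from RefSeq (GRCm38.p6), were held for 8 of the 9 genes, with 15 starts in all. The core TGGGAA was searched on both strands, so that it may read TTCCCA. It was present in 6 of the 15 windows, belonging to Rbpj, Spen, Maml2, Maml3 and Ncor1, and in 21.6% of all 32851 windows of the same length. Both Rbpj windows are among the 6, and they overlap, so that 1 match, 65 bases before the first start and 205 before the second, is counted in both. The longer GTGGGAA, which contains the core and was searched on both strands too, was in 1 of the 15, that of Spen, and in 5.42% of all windows. The windows of Rbpj (first start, plus strand, chr5:53590096-53590345) and Spen (minus strand, chr4:141538598-141538847) are shown because Rbpj is the factor itself and Spen is the member whose groups separated by the most. Capitals mark the core. Matches lie 149 and 65 bases before the Rbpj start and 8 bases before the Spen start.
Rbpj: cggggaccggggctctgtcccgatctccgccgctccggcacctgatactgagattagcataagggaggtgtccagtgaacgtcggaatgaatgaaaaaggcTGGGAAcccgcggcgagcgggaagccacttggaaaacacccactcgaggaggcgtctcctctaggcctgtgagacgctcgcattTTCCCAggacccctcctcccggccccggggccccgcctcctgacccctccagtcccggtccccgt
Spen: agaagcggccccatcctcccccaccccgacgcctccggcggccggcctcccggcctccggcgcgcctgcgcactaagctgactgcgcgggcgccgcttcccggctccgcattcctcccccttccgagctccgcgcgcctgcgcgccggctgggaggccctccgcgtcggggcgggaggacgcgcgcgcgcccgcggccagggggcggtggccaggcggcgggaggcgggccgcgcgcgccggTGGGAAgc
A match describes these letters and is no evidence of binding, and no protein binding was measured in this series.

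The Mastermind proteins are the coactivators that complete the Notch complex on DNA. Maml1, on chromosome 11, had 3 probe sets, and its brightest, 1426769_s_at, was at 10.46, 10.20 and 10.43 in WT and at 10.38, 10.13 and 10.39 in N1-IC. Replicate 2 of each genotype is its lowest array, and the difference between groups is a log2 fold change of -0.065 ± 0.12 (interval -0.37 to 0.24). In the array's naming, probe sets ending in _s_at may match transcripts of more than 1 gene. Probe set 1452188_at, annotated with the same source sequence, was at 8.27, 8.04 and 8.11 in WT and at 8.12, 7.91 and 7.82 in N1-IC. Of these, N1-IC replicate 1 lies inside the WT range and N1-IC replicates 2 and 3 lie below it. It gave a log2 fold change of -0.18 ± 0.12 (interval -0.48 to 0.11, adjusted p = 0.698). The remaining probe set, 1441697_at, lay at 3.47 to 4.08 on the 6 arrays, around their lower quartile, with a log2 fold change of -0.094 ± 0.21. All 3 Maml1 probe sets thus had a lower mean in N1-IC and none was called.

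Maml2, on chromosome 9, has 1 probe set, 1427926_at. It was at 3.58, 3.55 and 3.74 in WT and at 3.62, 3.84 and 3.78 in N1-IC. It was below the lower quartile of every array. Without detection calls, which this account does not use, its signal cannot be told from background. The log2 fold change of 0.12 ± 0.11 (interval -0.14 to 0.39) is of that low signal.

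Spen, on chromosome 4, encodes the large corepressor, also known as Mint, that competes with Notch for Rbpj. Its probe set 1420397_a_at was at 8.51, 8.29 and 8.20 in WT and at 7.75, 8.12 and 8.16 in N1-IC. Every N1-IC array was below every WT array, by 0.0404 between the nearest values, and N1-IC replicate 1 was the lowest of the 6. The means were 8.33 ± 0.161 (SD, n = 3) in WT and 8.01 ± 0.225 (SD, n = 3) in N1-IC. The log2 fold change was -0.32 ± 0.15, a fold of 0.798 with an interval of 0.618 to 1.03, and it did not pass (limma unadjusted p = 0.0754, adjusted p = 0.645). Without N1-IC replicate 1 it was -0.20, and without N1-IC replicate 3 it was -0.40.

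Fbxw7, on chromosome 3, encodes the part of an SCF ubiquitin ligase that recognises phosphorylated Notch as well as Myc and cyclin E. Probe set 1424986_s_at was at 7.442, 7.517 and 7.578 in WT and at 7.435, 6.982 and 7.177 in N1-IC. N1-IC replicate 1 touches the WT range from below, and N1-IC replicates 2 and 3 are clearly under it. After median centring of the arrays the groups of this probe set overlapped. The log2 fold change was -0.31 ± 0.14 (interval -0.65 to 0.019, limma unadjusted p = 0.0607, adjusted p = 0.644), the smallest p of the 16 probe sets. The brighter probe set 1451558_at, annotated with the same source sequence, was at 10.45, 10.19 and 9.76 in WT and at 9.76, 10.15 and 9.88 in N1-IC. In it the lowest WT array is as low as the lowest N1-IC array, and the groups overlap. Its log2 fold change of -0.20 ± 0.21 (interval -0.70 to 0.30) became -0.042 without WT replicate 1 and -0.39 without WT replicate 3. The Fbxw7 gene has 3 starts in the RefSeq table, and which of its transcripts each probe set reads was not analysed here.

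Numb, on chromosome 12, encodes an endocytic adaptor that is handed to 1 daughter cell in asymmetric divisions and opposes Notch there. Probe set 1416891_at was at 9.23, 9.33 and 9.59 in WT and at 9.48, 9.53 and 9.61 in N1-IC. The N1-IC arrays are close together (SD of 0.067) at the upper end of the WT range (SD of 0.183), with a log2 fold change of 0.16 ± 0.12 (interval -0.14 to 0.46, adjusted p = 0.723), the highest of the 16. Probe set 1425368_a_at was at 5.47, 5.77 and 5.72 in WT and at 5.41, 5.43 and 6.09 in N1-IC, near the array medians. N1-IC replicate 3 is its highest array and N1-IC replicates 1 and 2 its lowest, and the log2 fold change was -0.0086 ± 0.21. After median centring or renewed quantile normalization this value was 0.0056 or 0.0023, so it has no settled sign.

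Itch, on chromosome 2, encodes a ubiquitin ligase of the Nedd4 family that acts on Notch and on Jun proteins. It has 4 probe sets. The brightest, 1415769_at, was at 10.84, 10.67 and 10.79 in WT and at 10.80, 11.02 and 10.64 in N1-IC. N1-IC replicates 2 and 3 are its highest and lowest arrays, so the spread within N1-IC covers the WT range, and the log2 fold change was 0.056 ± 0.13 (interval -0.26 to 0.37). Probe set 1459332_at was at 6.40, 6.31 and 5.43 in WT and at 5.54, 5.49 and 5.56 in N1-IC. WT replicates 1 and 2 are high, and WT replicate 3 is below all 3 N1-IC arrays. This probe set was below the array median on 4 of the 6 arrays, those of N1-IC and WT replicate 3. Its log2 fold change of -0.51 ± 0.26 (interval -1.15 to 0.12, adjusted p = 0.656) has the widest interval of the 16. Without WT replicate 3 it was -0.82 with a limma unadjusted p of 0.000402 and an adjusted p of 0.273, and without WT replicate 1 it was -0.34. That unadjusted p is the smallest of the 16 probe sets with any array left out. Probe sets 1431316_at (5.69 to 6.65 over the 6 arrays) and 1440582_at (4.33 to 4.83) had log2 fold changes of -0.19 ± 0.25 and -0.15 ± 0.14. The 4 probe sets of Itch therefore differ in sign, and the brightest is the one with a higher mean in N1-IC.

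**Figure D2:**
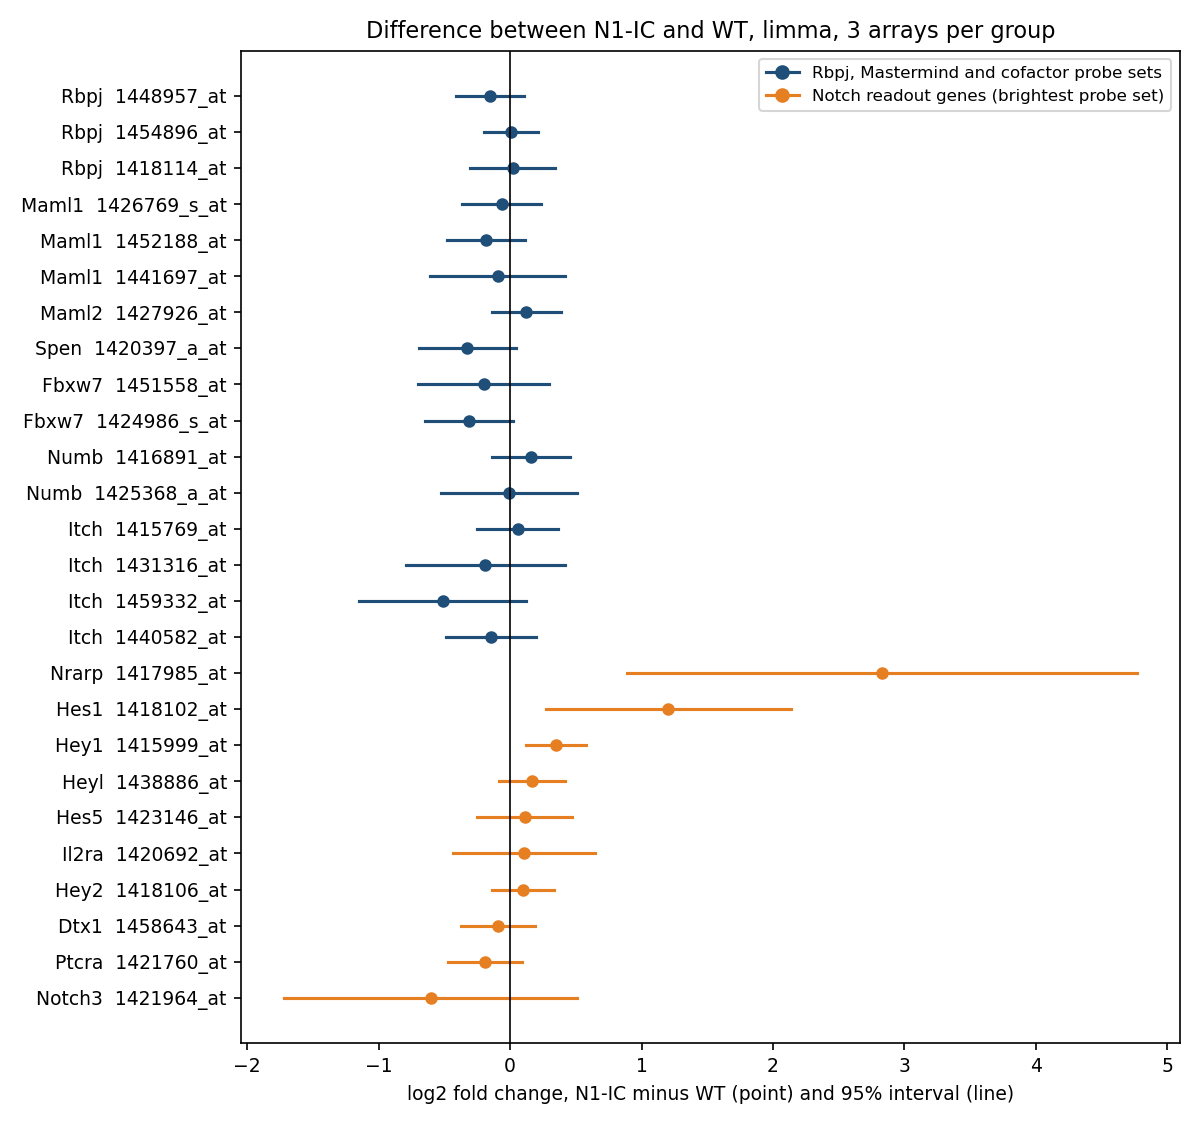
Log2 fold change of N1-IC over WT (points, x axis) with its 95% limma interval (lines) for the 16 member probe sets (blue) and the brightest probe sets of the 10 readout genes (orange). All 16 blue intervals and 7 of the 10 orange ones include 0, and those of Nrarp, Hes1 and Hey1, the readout genes with the smallest p, lie above it.

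The intervals bound the size of change in signal that these arrays leave possible, which near background says little of the transcript. Of the 16, 15 lie within a change of 1 log2 unit either way, and 9 lie within 0.5. The 9 include Maml2, below the lower quartile of every array, and Itch 1440582_at, below the median of every array. The lowest bound of all is -1.15, for Itch 1459332_at, and the highest is 0.51, for Numb 1425368_a_at. Array by array, the median deviation of the 16 probe sets from their own means was 0.087, 0.035 and 0.063 for the WT samples, taken in replicate order, and -0.0071, -0.0055 and -0.096 for those of N1-IC. WT replicate 1 was the highest array for 7 of the 16 probe sets, and N1-IC replicate 3 the lowest for 5.

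**Figure D3:**
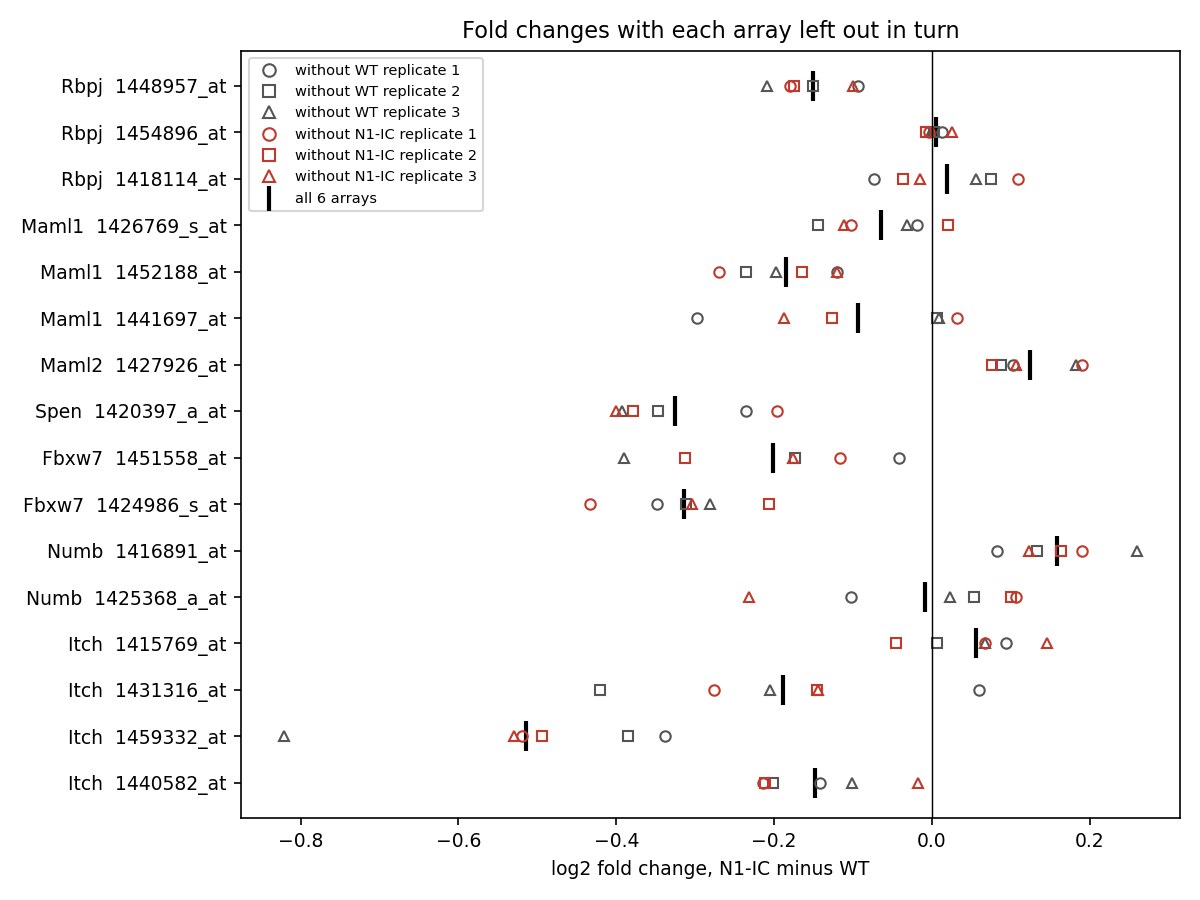
Log2 fold change of N1-IC over WT (x axis) for each of the 16 probe sets, with all 6 arrays (black bar) and with each array left out in turn (symbols). Spen stays between -0.40 and -0.20 and Fbxw7 1424986_s_at between -0.43 and -0.21, while both Rbpj probe sets nearest to 0 cross it.

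When single arrays were left out, 0 of 16 probe sets passed in each case. The sign of the fold change held in 80 of 96 such values, and the 16 that changed sign belong to 7 probe sets: 2 each of Rbpj, Maml1 and Itch, and 1 of Numb. Spen, both probe sets of Fbxw7, Maml2 (0.076 to 0.19) and the brighter probe set of Numb (0.082 to 0.26) kept their sign. So did Rbpj 1448957_at, which ran from -0.21 without WT replicate 3 to -0.094 without WT replicate 1, Maml1 1452188_at (-0.27 to -0.12) and the 2 remaining probe sets of Itch. The number of probe sets whose groups do not overlap was 7 of 16 without WT replicate 3, where it was 32.3% of all probe sets, and 4 of 16 without WT replicate 2 (22.9% of all), N1-IC replicate 1 (23.8%) or N1-IC replicate 3 (26.3%). It was 3 of 16 without WT replicate 1 (23%) and 2 of 16 without N1-IC replicate 2 (22.7%).

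The readout of the pathway is in the genes that Rbpj and Notch switch on, and 0 of the 10 readout genes passed in limma. Nrarp and Hes1 had the largest fold changes of the 10, and for 7 of the 10 the interval included 0. Here and below each gene is represented by its brightest probe set. Nrarp, a feedback inhibitor that binds the Notch complex, was at 7.22, 6.96 and 6.41 in WT and at 8.01, 9.74 and 11.33 in N1-IC, and its second probe set overlapped between groups (log2 fold change 1.94 ± 1.04). Hes1, a repressor gene and a direct target, was at 6.12, 5.52 and 5.87 in WT and at 6.44, 6.80 and 7.88 in N1-IC. Hey1, a relative of Hes1, was below the median of every array, with WT samples between 4.75 and 4.86 and N1-IC samples between 5.06 and 5.21. In these 3 genes all N1-IC samples exceeded all WT samples, with log2 fold changes of 2.83 ± 0.80, 1.20 ± 0.38 and 0.35 ± 0.09. Their unadjusted p values of 0.0115, 0.0195 and 0.00986 all had an adjusted p of 0.64. Hes5, Heyl, Hey2 and Il2ra had log2 fold changes of 0.11, 0.17, 0.098 and 0.10, and Dtx1, Ptcra and Notch3 of -0.091, -0.19 and -0.61. Apart from Hes5, all of these lay below the median of every array, so their values are of low signals. Hey2 was below the lower quartile of every array. For Notch3, WT replicate 2 was at 5.58 against 3.71 to 4.19 on the other arrays. The other probe set of Dtx1 had the opposite sign, at 0.017. N1-IC replicate 3 was the highest array for Nrarp and Hes1.

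Other genes of the nuclear machinery were taken from lists written from general knowledge. Of 84 listed genes, 81 were measured, and 0 of these passed in limma, where 0.0055% of all genes did (1 gene, the Y-linked Eif2s3y). At an unadjusted p under 0.05 there were 7 of 81, against 7.22% of all genes. Groups did not overlap for 11 of the 81 (13.6%), against 14.8% of all 18193 genes, so the share is close to the background.

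Coactivators and Mediator subunits, which the Mastermind proteins recruit, spanned the narrowest range of the 5 lists. In N1-IC the mean was higher for 8 of the 13 measured genes and lower for 5, 0 had an unadjusted p under 0.05, and all log2 fold changes lay between -0.20 and 0.22. The acetyltransferase genes Ep300 and Crebbp had 0.075 ± 0.12 and 0.068 ± 0.099, but only 1 of 4 Crebbp probe sets had that sign. Kat2a, of the same function, had -0.20 ± 0.12, Ccnc, the cyclin of the Mediator kinase that phosphorylates Notch for destruction, had 0.21 ± 0.14, and Med13 had 0.22 ± 0.16. For Ccnc another probe set, 1428570_at, had 0.49 ± 0.13 and no overlap between the groups (limma adjusted p = 0.64), and 1 of its 5 probe sets had the opposite sign. Med13 also had probe sets of both signs.

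Corepressors and inhibitors of Rbpj held 19 measured genes, 8 with a higher and 11 with a lower mean and 0 past the threshold. Ctbp2, a corepressor gene of the CtBP family, was at 9.43, 9.06 and 9.74 in WT and at 9.83, 10.05 and 10.03 in N1-IC, all above WT. Its log2 fold change was 0.56 ± 0.19 (limma unadjusted p = 0.0231, adjusted p = 0.64), but its other probe set had -0.12 ± 0.12 with overlapping groups. Kdm1a, a histone demethylase gene of Rbpj repressor complexes, was at 11.75, 11.55 and 11.39 in WT and at 11.31, 11.16 and 11.27 in N1-IC. In both of its probe sets all N1-IC samples lay below all WT samples, with log2 fold changes of -0.32 ± 0.12 (unadjusted p = 0.0414, adjusted p = 0.643 in limma) and -0.22 ± 0.10. L3mbtl3, whose product binds Rbpj and brings Kdm1a to it, was at 11.23, 11.04 and 10.77 in WT and at 10.49, 10.25 and 10.84 in N1-IC. N1-IC replicate 3 lies inside the WT range and the other N1-IC arrays below it, and its log2 fold change was -0.48 ± 0.19 (unadjusted p = 0.0453, adjusted p = 0.644 in limma). All 3 probe sets of L3mbtl3 had a lower mean in N1-IC, at -0.48, -0.55 and -0.17.

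Genes of ubiquitin and endocytic turnover held 26 measured genes, 11 with a higher and 15 with a lower mean and 0 past the threshold. Lnx1, which encodes a ubiquitin ligase that acts on Numb, was at 9.14, 8.71 and 9.01 in WT and at 9.26, 9.60 and 9.36 in N1-IC, all above WT. Its log2 fold change was 0.45 ± 0.16 (unadjusted p = 0.0258, adjusted p = 0.64 in limma), and that of its other probe set was 0.13 ± 0.12 with overlapping groups. Aak1, a kinase gene of clathrin-mediated endocytosis whose product phosphorylates Numb, had -0.32 ± 0.14, but only 2 of its 7 probe sets had that sign. Nedd4l, a ubiquitin ligase gene of the family of Itch, had -0.32 ± 0.17, with 3 of 6 probe sets of that sign. Of the other SCF genes in the list, Skp1 and Cul1 had -0.078 ± 0.10 and -0.0016 ± 0.12. Rbx1 was measured less precisely, at 0.10 ± 0.34 (interval -0.73 to 0.93), and its only probe set lay below the array median on 3 arrays.

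Among 14 substrates of Fbxw7 and Itch, 5 had a higher and 9 a lower mean, and 0 passed in limma or had an unadjusted p under 0.05. Myc, the growth regulator, was at 11.47, 11.25 and 10.89 in WT and at 10.40, 10.51 and 11.06 in N1-IC. N1-IC replicate 3 lies inside the WT range, and the log2 fold change was -0.55 ± 0.23 (interval -1.11 to 0.0081). Ccne1, which encodes cyclin E1, was at 8.93, 10.04 and 8.95 in WT and at 8.74, 8.78 and 8.70 in N1-IC. WT replicate 2, the array with high erythroid genes, stands far above the rest here, and the part of those cells in the difference was not tested. The log2 fold change of Ccne1 was -0.57 ± 0.31, and in both of its probe sets all N1-IC samples lay below all WT samples. Mtor had -0.18 ± 0.094 with groups that did not overlap, and 1 of its 3 probe sets had the opposite sign. Notch1 itself had -0.0041 ± 0.18, with 1 of its 2 probe sets of that sign. Whether these probe sets also read the introduced Notch1 domain was not analysed here. These substrates are regulated as proteins, which the arrays do not measure.

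**Figure D4:**
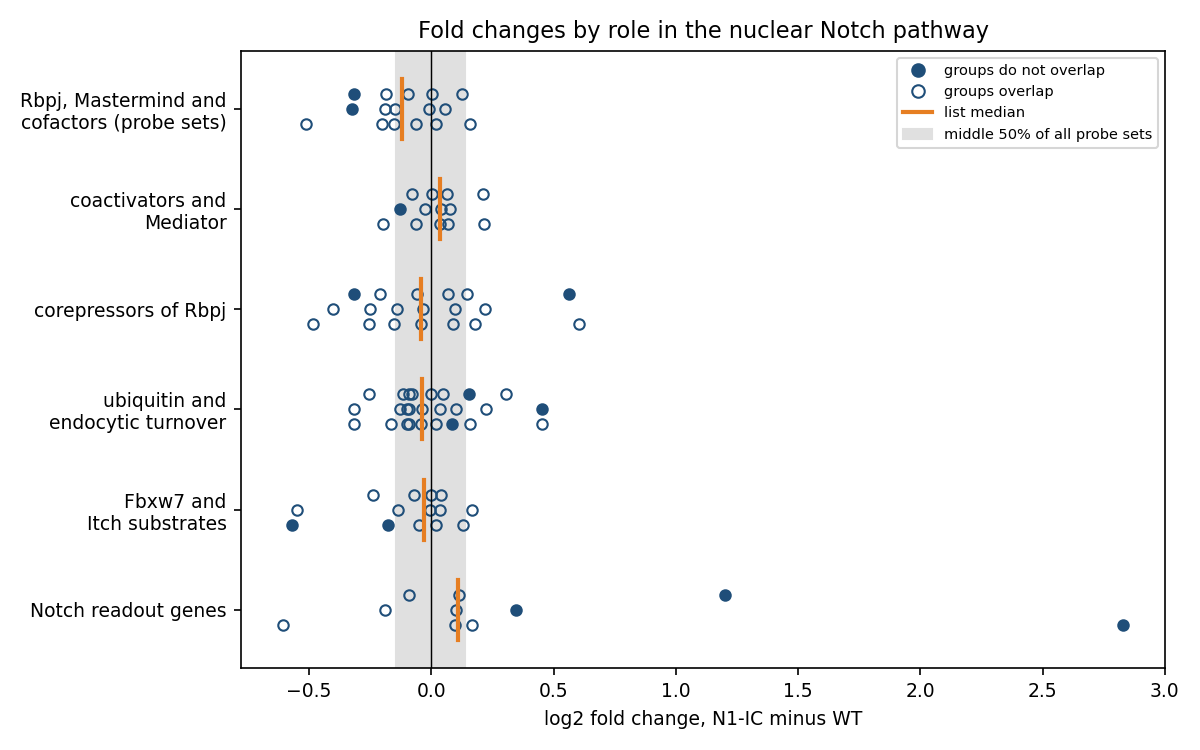
Log2 fold change of N1-IC over WT (x axis) for the 16 member probe sets and for the genes of the 5 pathway lists (y axis), with filled points where the groups do not overlap, list medians (orange) and the middle 50% of all probe sets (grey band, -0.15 to 0.14). List medians run from -0.12 for the members (-0.066 without WT replicate 3) to 0.11 for the readout genes, where Nrarp and Hes1 lie farthest out.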

How the data were processed

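RNA of 3 WT and 3 N1-IC samples (5 ng each, amplified and labelled with biotin) was hybridised to Affymetrix arrays. The values the authors deposited are intensities on a linear scale. The submitters' processing notes name RMA, with its version not given in the sources used here. Sorted arrays lay within 0.103 of their mean on the log2 scale, so they had been normalized to nearly 1 distribution and differences are relative to other genes. Log2 was taken with no offset. Of 45101 probe sets, 64 Affymetrix controls were left out. Gene symbols were single for 34958 probe sets, several for 932 and absent for 9211. N1-IC was compared with WT by limma 3.58.1 under R 4.3.3 (functions lmFit and eBayes, no trend, robust prior or block) on 45037 probe sets, adjusted by Benjamini-Hochberg, with calls at 0.05. Errors of fold changes are moderated standard errors and intervals are 95%.

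The text names all member probe sets, the 3 genes with the smallest p of each pathway list, all readout genes and the 3 genes nearest to Rbpj in pattern. Ep300, Crebbp, Skp1, Cul1, Rbx1 and Notch1 were added after their values were seen. Members and lists were chosen with earlier results of these data known. The fit was tested on simulated data. Alternatives were a trend, a robust prior, array weights, 2 renormalizations, an offset of 16, a filter at the median level, 1 probe set per gene, a replicate block, a threshold of 0.1 and each array left out.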

Additional observations from a re-analysis of the deposited data

How the results depend on the processing

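No member probe set and no gene of the pathway lists passed under any alternative run, and the smallest adjusted p of a member over all of them was 0.273. Of 244 member values, 226 kept their sign. Beside the values given with each array left out, the sign changed only for Numb 1425368_a_at, to 0.00227 after renewed quantile normalization and 0.00563 after median centring. With an array left out, the values of the probe sets that changed sign ran from -0.00789 to 0.0257 and from -0.0735 to 0.109 for Rbpj 1454896_at and 1418114_at. They ran from -0.144 to 0.0209 and from -0.298 to 0.0321 for Maml1 1426769_s_at and 1441697_at, from -0.232 to 0.107 for Numb 1425368_a_at, and from -0.0456 to 0.146 and from -0.421 to 0.0598 for Itch 1415769_at and 1431316_at. The members' median of -0.121 became -0.0762 with log2(value + 16) and -0.0647 with 1 probe set per gene, and -0.147 to -0.0661 with an array left out, the last without WT replicate 3. The number of members whose groups do not overlap was 1 of 16 after either renormalization (14% and 14.6% of all probe sets), 1 of 7 with 1 probe set per gene (14.8% of genes), and 2 to 7 of 16 with an array left out (22.7% to 32.3% of all probe sets). The count over all probe sets, 4, was 7 with a trend, 1 with 1 probe set per gene, 10 at a threshold of 0.1, and 3 to 8 with an array left out, highest without WT replicate 2. With the replicate block it was 2, and 0 members passed. Deviations from the group means of samples with equal numbers correlated at 0.013, 0.0396 and -0.0769, and those of unequal numbers at -0.0725 to 0.0707. Whether samples with equal numbers were handled together was not tested, and the main fit did not pair them. The number of arrays limits precision, and signals below the lower quartile cannot be told from background here.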
